A study of Mus musculus with 45 samples.

Results

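Myometrium of Plag1 knockout (Plag1KO, here KO) and wildtype (WT) mice was compared gene by gene on raw molecule counts. It is the muscle wall of the uterine horn that remained after the mucosa had been scraped from the opened horn. The comparison used the 15 libraries labelled as myometrium, of 45 libraries in the series, and they came from 14 mice, 7 of each genotype. WT mouse 12 had 2 libraries, whose counts were summed. All mice were females of the outbred CD-1 stock, between 1 and 3 months old per the methods of the study. They were sexually mature when they received pregnant mare serum gonadotropin, then human chorionic gonadotropin (hCG) on the second day after it, and were killed a day later. The labels do not say whether they were mated. Each mouse number in the labels is a separate animal, and the colony was kept by heterozygous breeding. Both genotypes received these hormones, so no untreated state of the tissue was measured. In the KO allele, lacZ stands in for the whole coding region of Plag1 in every cell of the animal, and this is not a deletion limited to muscle. RNA was read by STRT sequencing, in which a molecule is tagged and counted at its 5′ end.

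PLAG1, the founding member of the PLAG family, is a DNA-binding protein with zinc fingers, known as an oncogene of salivary gland tumours and as a driver of growth through the insulin-like growth factor gene Igf2. It binds a bipartite consensus made of a GC-rich core (GGGGC or GAGGC) and a shorter G cluster downstream. The myometrium consists of smooth muscle layers with connective tissue, vessels, nerves and a serosal lining. Its cells contract through actin, myosin and their regulators, and estrogen, progesterone, prostaglandins and oxytocin control that contraction.

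The DNA in question is shown for 2 kinds of genes. The first are the genes with the most counts, and the gene with the smallest p, among those that the study lists with a PLAG1 motif in their mouse promoters. The sites are on mouse build mm9 (NCBIM37), and all 169 listed sequences were read back exactly from that genome. Capitals mark the core, GGGGC or GAGGC, or its reverse complement.
Ap4s1, chr12:52790014-52790044, plus strand: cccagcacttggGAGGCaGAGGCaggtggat
Rpl37a, chr1:72757008-72757038, plus strand: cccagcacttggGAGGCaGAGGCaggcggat
Rps21, chr2:179990987-179991017, plus strand: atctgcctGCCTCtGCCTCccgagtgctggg
Rps26, chr10:128064420-128064450, minus strand: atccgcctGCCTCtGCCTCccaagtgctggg
Each of these sites held the core GAGGC a pair of times in tandem, and the sites of Ap4s1 and Rpl37a were nearly the same sequence.

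The second kind are genes that the results turn on and that held the PLAG1 bipartite consensus upstream of a start in RefSeq promoters (build GRCm38.p6, 250 bases before to 50 bases after a start). Both strands were searched, with a spacer of 6 to 8 bases, and capitals mark the core and the G cluster.
Igf2, chr7:142657581-142657597, minus strand: GGGGCgggtgcaaAGGG
Tfpi, chr2:84476781-84476796, plus strand: GAGGCcccttatAGGG
Itih5, chr2:10153461-10153476, plus strand: GAGGCgtggcctGGGG
Tcf3, chr10:80433644-80433658, minus strand: GGGGCggggtgGGGG
Pkdcc, chr17:83215208-83215224, plus strand: GAGGCgctggcggAGGG
The consensus was present in 6303 of 32851 promoters (19.2%), so its presence at a gene is a description only. Of the 16 genes named below for a small p, 12 had a promoter entry and 4 of these held it. That stands beside 3372 of the 10330 tested genes with an entry (32.6%). A comparison of genes with and without the consensus was treated as void and is not given, since too few genes could be matched: the 10330 genes matched to a promoter were 79.5% of the 12991 tested.

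Depth was 451916 to 858698 gene counts per library in WT and 309987 to 691105 in KO, and 10137 to 12451 genes had a count. CPM is counts per 1000000 after scaling of the library totals by TMM factors. A floor of 3 counts was 3.49 to 9.68 CPM depending on the library, and such floors cover counting error only. KO mouse 9 had the shallowest library, with 2.61% of its counts in spike-in RNA against 1.14% to 1.97% in the 14 others. Position codes in the labels placed 5 WT and 3 KO mice in row B and 2 WT and 4 KO mice in rows E and F. Plag1 itself could not check the genotype labels. It had 1 count in the 7 WT mice together and 1 count in the 7 KO mice together, and a 5′ tag can lie outside the replaced coding region. Counts in a piece of tissue cannot tell fewer cells of a type apart from less RNA per cell.

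The main question was which genes of the muscle wall differ between genotypes. None of the 12991 genes tested passed an adjusted p of 0.05 in edgeR (0%), while 548 (4.22%) had an unadjusted p under 0.05, of which 214 (1.65%) were higher in KO and 334 (2.57%) lower. DESeq2 also called 0 genes, with 411 under the unadjusted threshold, and limma-voom called 0, with 590. With spike-in scaling the split was 130 higher and 331 lower. The median log2 fold change over all genes was -0.03, and 11938 genes (91.9%) had an estimate within 1 of 0. The median standard error over genes was 0.44 on the log2 scale, which holds the spread between mice as well as depth. It is not a limit of detection, and differences well above it could be missed. Tfpi, at -1.25 ± 0.29, had an edgeR adjusted p of 0.535.

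**Figure D1:**
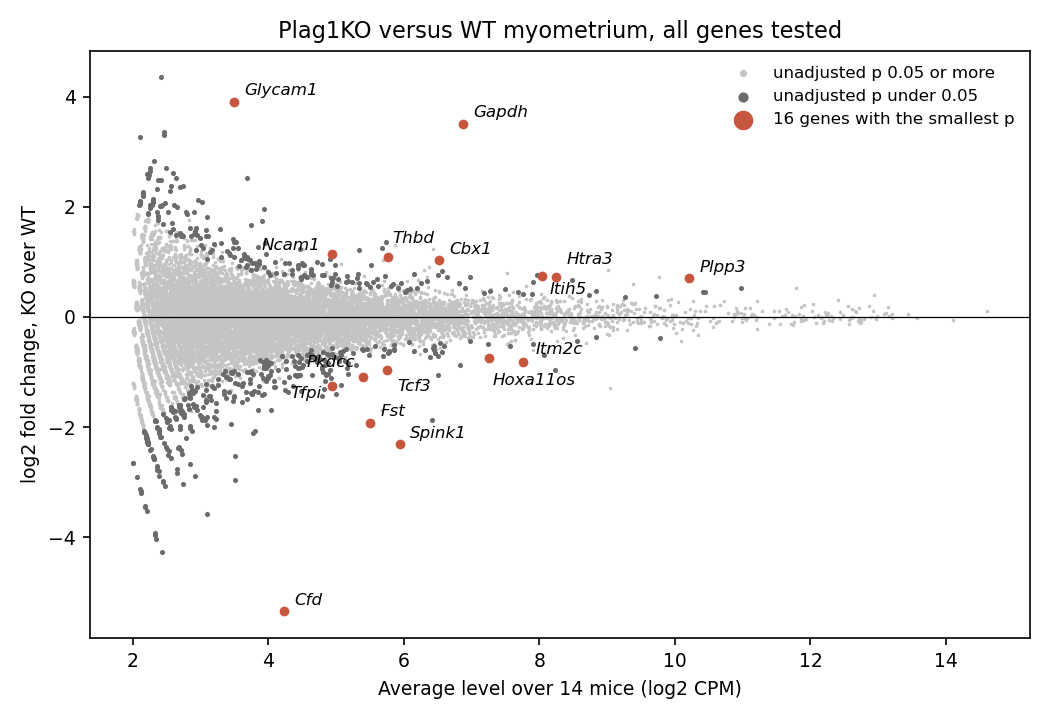
The log2 fold change of KO over WT (vertical axis) is plotted against the average level of each gene over 14 mice (horizontal axis, log2 CPM). Dark points are the 548 genes with an unadjusted p under 0.05, and the 16 named genes in red have the smallest p in each direction; none passed adjustment.

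Among the genes with lower counts in KO and a mean of at least 20 CPM in 1 genotype, the smallest p belonged to Tfpi. Tfpi (chr2:84273012-84316932 on mm9, minus strand) encodes tissue factor pathway inhibitor, which restrains the start of blood clotting. Its level ran from 34.1 CPM through a median of 35.3 to 56.6 in the 7 WT mice, and from 8.91 through 14.1 to 28.9 in the 7 KO mice. Every KO mouse was below every WT mouse, and 6 of the 7 WT mice lay close together with WT mouse 7 apart at the top. The log2 fold change was -1.25 ± 0.29 (SE), which is a KO level 0.421 times that of WT, with an edgeR adjusted p of 0.535. Within row B it was -1.07 and within rows E and F -1.34.

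Spink1, a secreted trypsin inhibitor that epithelial glands make, had 10.5, 83.8 and 267 CPM in WT (lowest, median and highest mouse) and 2.97, 8.15 and 53.3 CPM in KO. The genotypes overlapped, with 4 KO mice below the lowest WT mouse. Its log2 fold change of -2.31 ± 0.55 (edgeR adjusted p = 0.535) was -2.27 ± 0.55 within row B and -0.00 ± 0.60 within rows E and F. In rows E and F, KO mice 9, 11 and 14 were below WT mice 10 and 12, and KO mouse 13 was above them at 35.0 CPM. The log2 fold change was -1.79 without WT mouse 3. The 10 epithelial markers summed to 172 to 1663 CPM in WT and 234 to 1104 in KO, with 0 of the 10 at an unadjusted p under 0.05. They too differed by row, with a median log2 fold change of -0.02 within row B and 0.92 within rows E and F, where 9 of 10 were positive. With that sum as a covariate the Spink1 value was -2.18, and the part of epithelium in it was not tested within rows.

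Fst encodes follistatin, a secreted binder of activins. It ran through 20.6, 40.9 and 199 CPM in WT and 0, 9.41 and 56.2 CPM in KO, where 5 of 7 KO mice were below every WT mouse. Its log2 fold change was -1.92 ± 0.50 (edgeR adjusted p = 0.655). It was -1.65 within row B and -1.89 within rows E and F.

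Itm2c, an integral membrane protein of the BRI family, had 176, 197 and 499 CPM in WT against 124, 145 and 195 CPM in KO, and 6 KO mice were below the lowest WT mouse. WT mice 3 and 7 were high, and the log2 fold change of -0.83 ± 0.23 (edgeR adjusted p = 0.690) was -0.24 within rows E and F and -1.06 within row B. Tcf3, a basic helix-loop-helix transcription factor, had 44.3, 64.6 and 102 CPM in WT and 19.3, 28.5 and 63.0 CPM in KO, with a log2 fold change of -0.97 ± 0.27. Pkdcc, a secreted tyrosine kinase of connective tissue, had 26.7, 50.8 and 84.7 CPM in WT and 6.27, 20.8 and 47.3 CPM in KO. Its log2 fold change was -1.10 ± 0.32. KO mouse 4 alone lay in the WT range for Tcf3, and KO mice 4, 13 and 14 lay in it for Pkdcc. Hoxa11os, the antisense transcript that overlaps the uterine patterning gene Hoxa11, had 127, 195 and 277 CPM in WT and 62.3, 108 and 180 CPM in KO, with 6 KO mice under the WT range. The use of strand in counting was not stated, so its tags and those of Hoxa11 cannot be told apart.

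Cfd, the adipocyte protease adipsin, rested on a single animal. WT mouse 8 held 100 of the 112 WT counts, the 7 KO mice had 2 counts together, and 6 of the 7 WT mice had between 0 and 7 counts. The same mouse stood apart in the 8 adipocyte markers, with a summed 479 CPM against 96.8 to 130 in the other WT mice and 61.7 to 160 in KO. Cfd is 1 of the 8 and made up 207 of the 479 CPM. The part of fat tissue in this value was not tested, and without WT mouse 8 the unadjusted p for Cfd was 0.0531.

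Among the genes with higher counts in KO and a mean of at least 20 CPM in 1 genotype, Plpp3 had the smallest p after Gapdh. Gapdh is described further below. Plpp3 (chr4:104829952-104905369 on mm9, plus strand) encodes a membrane phosphatase that breaks down lysophosphatidic acid. It ran through 671, 912 and 1076 CPM in WT and 1025, 1381 and 2057 CPM in KO. Only the lowest KO mouse was under the highest WT mice. In KO it was higher by 0.70 ± 0.16 on the log2 scale, or 1.62-fold, with an edgeR adjusted p of 0.535, and it was 0.43 within row B and 0.90 within rows E and F.

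Ncam1 (chr9:49310257-49607027 on mm9, minus strand) encodes a cell adhesion molecule of nerves, glia and some muscle. Its level was 8.84, 18.6 and 24.7 CPM in WT against 26.4, 36.1 and 57.9 CPM in KO, so that every KO mouse was above every WT mouse. The log2 fold change was 1.13 ± 0.28, or 2.19-fold (edgeR adjusted p = 0.535). It was 1.45 within row B and 0.76 within rows E and F. Of the 7 nerve and Schwann cell markers 5 were tested, and all 5 had positive estimates, with a median of 0.64 that was 0.97 within row B and 0.18 within rows E and F. Mbp, a myelin protein, had a log2 fold change of 0.07 ± 0.46, and S100b, a glial calcium binder, 0.36 ± 0.54. Sox10, a glial transcription factor, had 2 counts in WT and 3 in KO. All 7 markers summed to 15.3 to 62.7 CPM in WT and 46.2 to 80.0 in KO, Ncam1 included, and the part of nerve tissue in the value was not tested.

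Itih5, a stabiliser of hyaluronan in the matrix, had 122, 198 and 267 CPM in WT and 248, 317 and 401 CPM in KO. Its log2 fold change was 0.75 ± 0.19 (edgeR adjusted p = 0.535), and 6 of 7 KO mice exceeded all WT mice. Htra3, a secreted serine protease of the decidua and of stroma, had 131, 217 and 310 CPM in WT and 254, 407 and 437 CPM in KO, a log2 fold change of 0.73 ± 0.19. Here 5 KO mice exceeded all WT mice, with KO mice 2 and 11 within the WT range. Thbd, the endothelial thrombin receptor thrombomodulin, had 11.9, 35.1 and 55.8 CPM in WT and 26.7, 73.2 and 128 CPM in KO (log2 fold change 1.08 ± 0.33). The 10 endothelial markers summed to 197 to 338 CPM in WT and 184 to 341 in KO, and 0 of the 10 had an unadjusted p under 0.05. Cbx1, a heterochromatin protein, had 28.8, 43.3 and 130 CPM in WT and 44.3, 123 and 211 CPM in KO, a log2 fold change of 1.03 ± 0.31. Glycam1, a mucin-like ligand of lymph node vessels and a milk protein, had 43 of its 47 KO counts in KO mouse 9 and 4 counts in all WT mice.

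**Figure D2:**
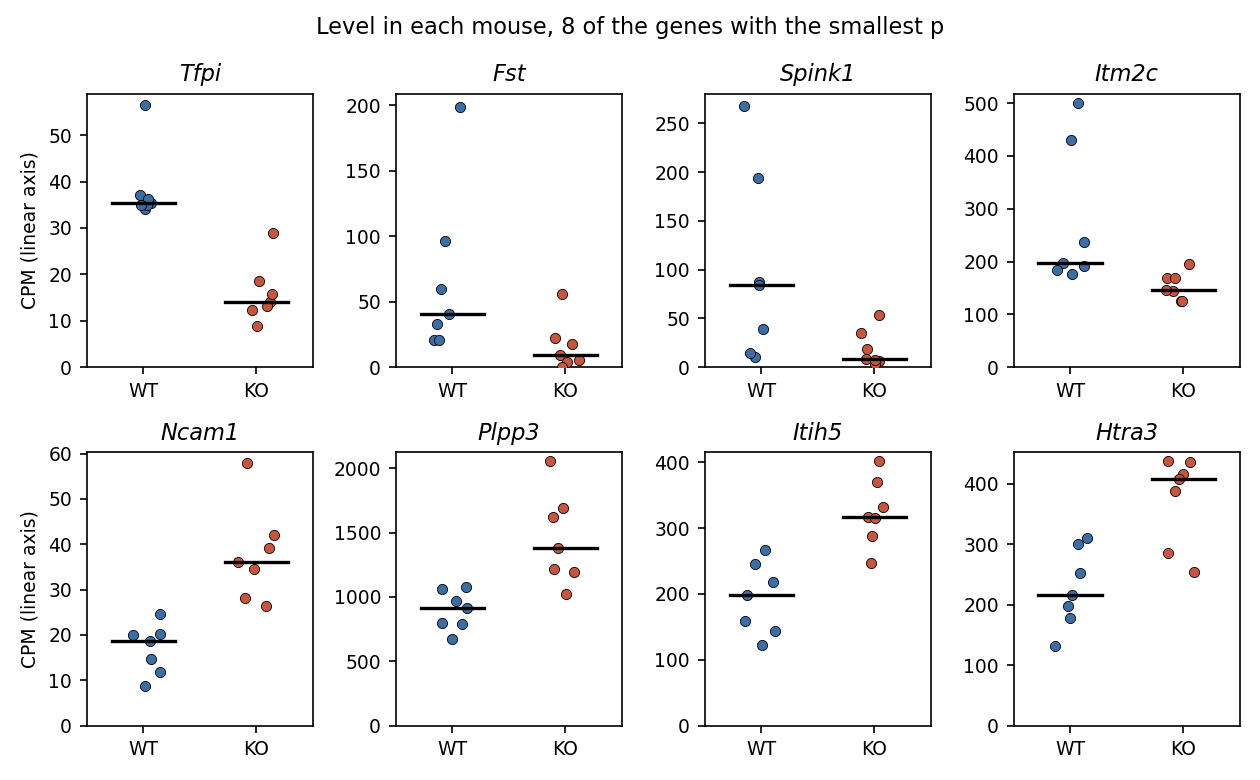
Each point is the level of a gene in 1 mouse (CPM, linear axis from 0), and the bar is the median of 7 mice. Shown are the 4 genes with the smallest p in each direction at a mean of at least 20 CPM in 1 genotype. Gapdh, Cfd and Glycam1 are left out. Tfpi and Ncam1 separate all mice of the genotypes, whereas the WT values of Spink1 run from 10.5 to 267 CPM.

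Genes whose mice did not overlap between genotypes numbered 9 of 12991 (0.0693%), with all KO mice above all WT mice in 3 (0.0231%) and below in 6 (0.0462%). The number to expect with no difference was not worked out, so a lack of overlap is a description only. Beside Tfpi and Ncam1, the genes without overlap were of low level. Eps15l1, an endocytic adaptor, had 11.1 to 26.5 CPM in WT and 2.06 to 9.91 in KO, a log2 fold change of -1.41 ± 0.40. Nprl3, a subunit of an inhibitor of mTORC1 signalling, had 8.22 to 21.1 CPM in WT and 0 to 7.42 in KO (-1.45 ± 0.49). Slc39a3, a zinc importer, had 4.13 to 9.37 CPM in WT and 11.0 to 17.6 in KO (0.97 ± 0.37). These 3 also rested on few molecules: in KO no mouse had more than 6 counts of Eps15l1 or 5 of Nprl3, and in WT none had more than 8 of Slc39a3. The other 4 had fewer counts still in 1 genotype. Afmid, an enzyme of tryptophan breakdown, had 4 counts in WT and 20 in KO. Swsap1 and Ercc2, both of DNA repair, had 38 and 29 counts in WT and 9 and 7 in KO. Lef1, a transcription factor of Wnt signalling that falls outside the naming rule and was added after its values were seen, had 24 counts in WT and 3 in KO.

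Gapdh, the glycolytic enzyme often used as a reference gene, had the smallest p of all, and its difference rested on 2 animals. Its level was 11.9, 14.8 and 29.3 CPM in WT and 15.3, 32.7 and 703 CPM in KO. KO mouse 2 was at 671 CPM and KO mouse 9 at 703 CPM, and the 5 other KO mice were at 15.3 to 36.9 CPM. The log2 fold change was 3.51 ± 0.68 with an edgeR adjusted p of 0.154, and without KO mice 2 and 9 it was 0.52 ± 0.34 with an unadjusted p of 0.136, a fit added after these values were seen. The pair were high in their other tissues as well, at 441 and 313 CPM in whole uterus, where the WT mice had 9.81 to 22.7 CPM, and at 677 and 450 CPM in endometrium, where they had 15.2 to 45.9 CPM. KO mouse 2 lay in row B and KO mouse 9 in row E. Gapdh has many near-identical copies in the genome, and the treatment of tags with several positions was not stated, so its level is uncertain.

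**Figure D3:**
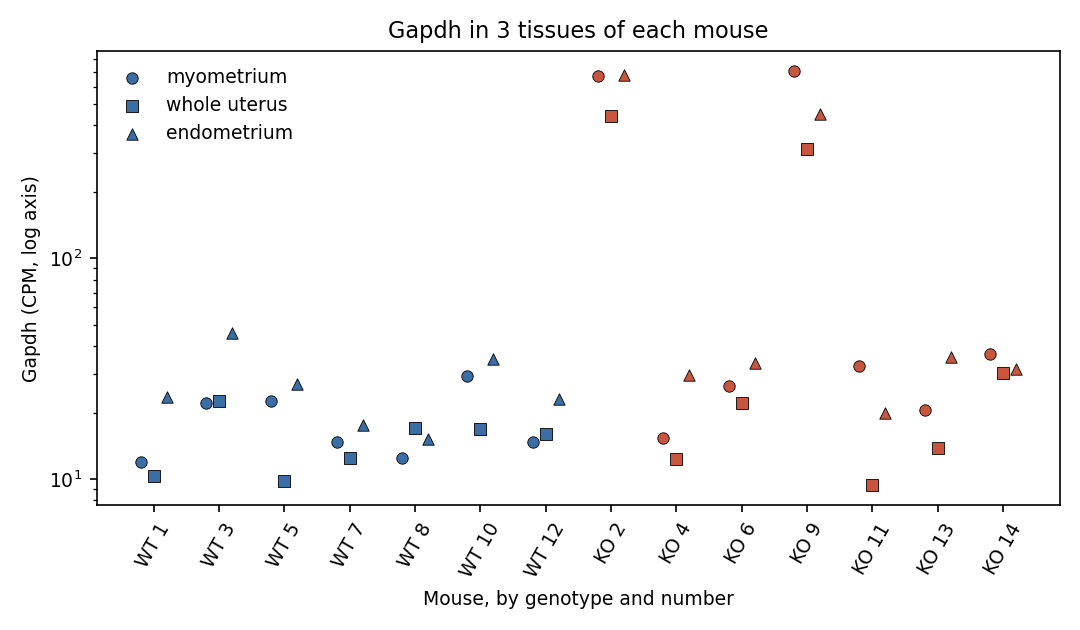
Gapdh in CPM (log axis) is shown for 3 tissues of each of 14 mice, with WT in blue and KO in red. KO mice 2 and 9 lie between 313 and 703 CPM in all 3 tissues, and no other mouse exceeds 45.9 CPM in any.

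Of 17 tested glycolytic enzymes, 3 (17.6%) had an unadjusted p under 0.05, beside 4.22% over all genes. Within row B 1 of 16 did, beside 4.2% over all genes. The median log2 fold change was -0.00. The 3 were Gapdh, the hexokinase Hk2 (1.36 ± 0.54) and the lactate dehydrogenase subunit Ldhb (-0.53 ± 0.23). Aldoa, the muscle aldolase, had a log2 fold change of 0.18 ± 0.18, Ldha -0.14 ± 0.23 and Gpi1 0.02 ± 0.18. Of 41 tested subunits of oxidative phosphorylation, 40 were within 0.5 of 0, with a median of 0.00 that was -0.10 within row B and 0.10 within rows E and F, and the smallest p was that of Uqcrq, a subunit of complex III, at -0.39 ± 0.15.

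The relatives and the known target of PLAG1 were present at few counts. Plagl1, the imprinted growth regulator Zac1, had 36 counts in the 7 WT mice and 23 in the 7 KO mice, a log2 fold change of -0.37 ± 0.51. Plagl2, the closest relative of PLAG1, had 18 and 16 counts (0.10 ± 0.58). Igf2 had 46 and 31 counts, with 2.06 to 17.1 CPM in WT and 1.57 to 13.2 in KO, and a log2 fold change of -0.26 ± 0.45. With an error of that size, a sizeable difference in either direction was not detectable at this depth. The binding proteins of insulin-like growth factors were better measured: Igfbp6 had a log2 fold change of 0.29 ± 0.21, Igfbp5 of 0.20 ± 0.29 and Igfbp4 of -0.12 ± 0.18. Of the 21 genes on this list 17 were tested, and 0 had an unadjusted p under 0.05. The median was 0.01, beside -0.03 over all genes, and it was 0.16 within row B and -0.45 within rows E and F. Chchd7, a mitochondrial protein gene that lies head to head with Plag1, had 42.6, 57.4 and 61.7 CPM in WT and 46.2, 55.0 and 67.4 in KO, a log2 fold change of 0.03 ± 0.21. Of 8 tested neighbours of Plag1 on chromosome 4, 0 had an unadjusted p under 0.05, and their log2 fold changes ran from -0.35 for the opioid peptide precursor Penk to 0.20 for Impad1.

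The contractile machinery of smooth muscle was measured at high counts and varied more among mice than between genotypes. Acta2, smooth muscle actin, had 4764, 5998 and 9787 CPM in WT and 5011, 7675 and 10905 CPM in KO, a log2 fold change of 0.20 ± 0.18. Tpm2, a tropomyosin, had 5455, 8383 and 12273 CPM in WT and 4817, 10416 and 12183 CPM in KO (0.18 ± 0.19). Myl6, a myosin light chain, had a log2 fold change of -0.01 ± 0.17. The ranges of the genotypes overlapped almost fully. Of the 25 contractile genes, 19 had a positive log2 fold change, beside 6056 of 12991 over all genes. Positive were 21 within row B and 13 within rows E and F. The median was 0.18, which was 0.20 within row B, 0.01 within rows E and F and 0.10 with spike-in scaling. Of the 25 genes, 24 were within 0.5 of 0. The exception was Lmod1, leiomodin, an actin filament nucleator, with 140, 305 and 368 CPM in WT and 236, 401 and 680 CPM in KO, a log2 fold change of 0.67 ± 0.23 and an edgeR adjusted p of 0.990.

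Receptors, channels and coupling proteins of contraction had 0 of 32 tested members with an unadjusted p under 0.05, and a median of 0.02 that was 0.22 within row B and -0.10 within rows E and F. Ppp1r14a, an inhibitor of myosin phosphatase, had a log2 fold change of -0.02 ± 0.22. The largest difference by p was that of Ptgs1, cyclooxygenase of constitutive prostaglandin synthesis, at -0.64 ± 0.39. Its WT range was 12.9 to 109 CPM with WT mouse 5 at the top, and its KO range was 10.2 to 36.9 CPM. The oxytocin receptor gene Oxtr had a log2 fold change of -0.08 ± 0.42, with 74 counts in WT and 63 in KO. The prostaglandin receptor genes Ptger2, Ptger4 and Ptgfr had 8 to 17 counts in either genotype together.

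Steroid receptors and responsive genes had 1 of 17 tested members with an unadjusted p under 0.05, and a median of 0.03 that was -0.32 within row B and 0.11 within rows E and F. This was Fkbp5, a cochaperone gene induced by glucocorticoids and progestins, with 6.17, 19.9 and 46.0 CPM in WT and 2.04, 10.2 and 14.4 CPM in KO, a log2 fold change of -1.25 ± 0.41. Igf1, a growth factor gene that estrogen induces in the uterus, had a log2 fold change of 0.18 ± 0.21 and the estrogen-induced feedback inhibitor Errfi1 of 0.08 ± 0.34.

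Matrix genes had higher estimates in KO more often than lower, and the KO mice split among themselves. Of 35 tested, 28 had a positive log2 fold change, with a median of 0.22 (0.15 with spike-in scaling), and 4 (11.4%) had an unadjusted p under 0.05 beside 4.22% over all genes. That count was 0 with spike-in scaling and 11 without KO mice 2 and 9, beside 461 of 12991 and 572 of 12722 over all genes. These 4 were Col1a1 (0.53 ± 0.20) and Col1a2 (0.45 ± 0.18), the chains of type I collagen, the basement membrane collagen Col4a1 (0.41 ± 0.19) and biglycan, Bgn (0.45 ± 0.20). None had an adjusted p under 0.05. Col1a1 had 1380, 1507 and 2137 CPM in WT and 1306, 2676 and 3393 CPM in KO, where 4 KO mice were above all WT mice and 2 were below. KO mice 2 and 9, left out above for their Gapdh after the data were seen, were at 1306 and 1466 CPM. Leaving them out thus removed low KO values of Col1a1. Dcn, decorin, had a log2 fold change of 0.28 ± 0.19, and Sparc, osteonectin, 0.11 ± 0.17.

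**Figure D4:**
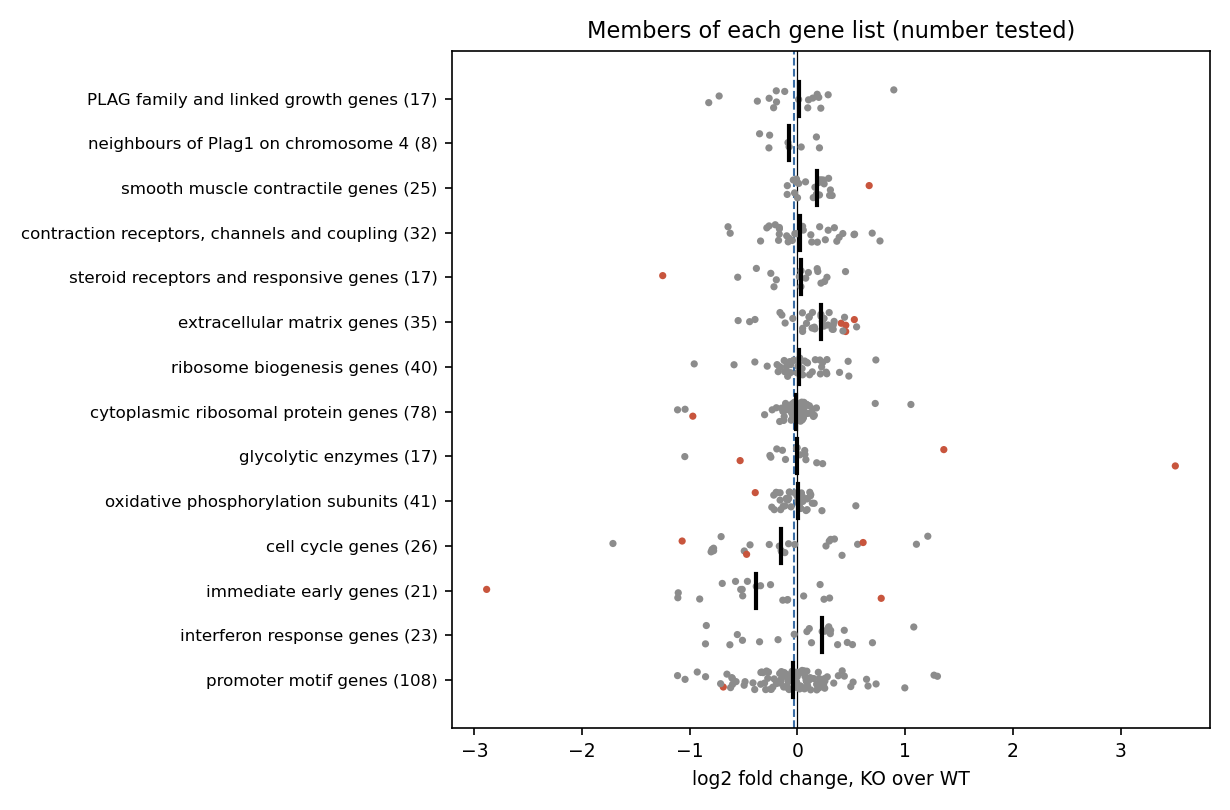
Each point is the log2 fold change of KO over WT of a list member, red where its unadjusted p was under 0.05, black bars are list medians and the dashed line is the median of all genes tested. Matrix genes lie mostly to the right of 0 with a median of 0.22, and the point at 3.51 is Gapdh.

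Of 78 tested genes of cytoplasmic ribosomal proteins, 73 were within 0.5 of 0 and the median was -0.02. Positive estimates numbered 35 of 78, but 18 of 78 with spike-in scaling, 23 of 77 within row B and 68 of 76 within rows E and F, where the median was 0.18. Rpl35a had a log2 fold change of -0.02 ± 0.13 and Rps14 -0.06 ± 0.24. Rps2 was the member with an unadjusted p under 0.05, at -0.97 ± 0.31, and it was -0.32 without WT mouse 8, whose level was 1252 CPM against 171 to 336 in the other WT mice. Many of these genes have processed copies elsewhere in the genome, so single members are uncertain. Of 40 ribosome biogenesis genes 37 were within 0.5 of 0, among them Npm1 (0.22 ± 0.16), Ncl (-0.00 ± 0.15) and Nop10 (0.04 ± 0.16).

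Genes with the PLAG1 motif shown above in their promoters were then set beside all genes. Of 127 such genes 108 were tested, and 1 (0.926%) had an unadjusted p under 0.05. The median log2 fold change was -0.04 beside -0.03 over all genes. The rows differed: within row B 10 of 106 had an unadjusted p under 0.05 and the median was -0.13, and within rows E and F 5 of 102 did and the median was 0.17. Over all genes 483 of 11496 (4.2%) did within row B and 513 of 10317 (4.97%) within rows E and F, and the median was -0.01 in either. Rpl37a had 6857, 10018 and 11426 CPM in WT and 6711, 9529 and 12762 in KO (-0.03 ± 0.15). Rps26 had a log2 fold change of -0.04 ± 0.15 and Rps21 of -0.11 ± 0.13. Ap4s1, a subunit of the AP-4 vesicle adaptor, was the member with the smallest p, with 16.5, 29.3 and 57.6 CPM in WT and 14.3, 22.6 and 25.2 CPM in KO. Its log2 fold change was -0.69 ± 0.30, and 0.03 within rows E and F. The study chose these genes on early embryos, not on these samples.

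Genes of proliferation and of acute responses were sparse. Of 26 tested cell cycle genes 3 (11.5%) had an unadjusted p under 0.05, beside 4.22% over all genes: Tyms, thymidylate synthase (-1.07 ± 0.39, with 74 counts in WT and 29 in KO), cyclin D3, Ccnd3 (-0.47 ± 0.23), and the cell cycle inhibitor Cdkn1a (0.61 ± 0.24). Ccnd3 had a log2 fold change of -0.00 within rows E and F. The list median of -0.15 was -0.19 within row B and 0.09 within rows E and F. Of 21 tested immediate early genes, which respond within minutes to handling and stretch, 16 had a negative log2 fold change, with a median of -0.38. That median was -0.69 within row B and 0.47 within rows E and F. Jun was at 165, 203 and 387 CPM in WT and 102, 138 and 371 CPM in KO (-0.25 ± 0.25), and Fosb had 13 counts in WT, of which 10 were in WT mouse 5, and 1 in KO. Klf4, a transcription factor of the same list, had a log2 fold change of 0.78 ± 0.34. Interferon response genes had 0 of 23 tested members with an unadjusted p under 0.05, and B2m, the light chain of class I antigens, had a log2 fold change of 0.31 ± 0.19. Their median of 0.23 was 0.40 within row B and -0.19 within rows E and F.

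Markers of cell types showed what else the scraped wall held. The tissue had the defining smooth muscle genes in every mouse, with 8 markers summing to 16798, 24337 and 42768 CPM in WT and 20507, 32156 and 38281 CPM in KO. Fibroblast markers summed to 4984, 5946 and 7164 CPM in WT and 4783, 9412 and 10206 CPM in KO. The KO mice formed a low set, mice 2, 9 and 11 at 4783 to 5369 CPM, and a high set, mice 4, 6, 13 and 14 at 9412 to 10206 CPM, above every WT mouse. Of the 8 fibroblast markers 4 had an unadjusted p under 0.05, beside 4.22% over all genes. This was 0 with spike-in scaling and 1 within row B, where 3.55% and 4.2% of all genes were under it. Within rows E and F it was 2, beside 4.97% of all genes. Without KO mice 2 and 9, both of the low set, it was 5, beside 4.5%. The 4 over all 14 mice were Col1a1, Col1a2, the growth factor receptor gene Pdgfra (0.61 ± 0.29) and vimentin, Vim (0.35 ± 0.17). Col1a1, Col1a2, Dcn and Lum are on the matrix list too. The part of fibroblast number in the matrix values was not tested.

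Epithelial markers were present at 172 to 1663 CPM in WT and 234 to 1104 in KO, with WT mouse 5 and KO mice 11 and 2 the highest. Krt18, a keratin of simple epithelia, had 32.4, 48.0 and 352 CPM in WT and 30.6, 84.2 and 256 CPM in KO. Leukocyte markers summed to 495 to 762 CPM in WT and 390 to 1304 in KO, with KO mouse 9 the highest, and mast cell markers to 102 to 316 and 84.7 to 294. Mesothelial markers of the serosa were at 11.0 to 99.1 CPM in WT and 19.3 to 79.0 in KO. Markers of striated muscle were at 228 to 952 CPM in WT and 395 to 582 in KO, with Myh4 at 0 in all mice, and Tnni2, fast troponin I, had a log2 fold change of -1.05 ± 0.44 that was -0.45 without WT mouse 10. Red blood cell markers were at 5.94 to 43.3 CPM, with the 4 globin genes on the list at 0 in every mouse. The treatment of tags with several positions was not stated, so these values of 0 are uncertain. Markers of the oviduct were at 0 to 39.2 CPM in WT and reached 126 CPM in KO mouse 14, of which 123 CPM was Ovgp1, the oviduct glycoprotein.

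**Figure D5:**
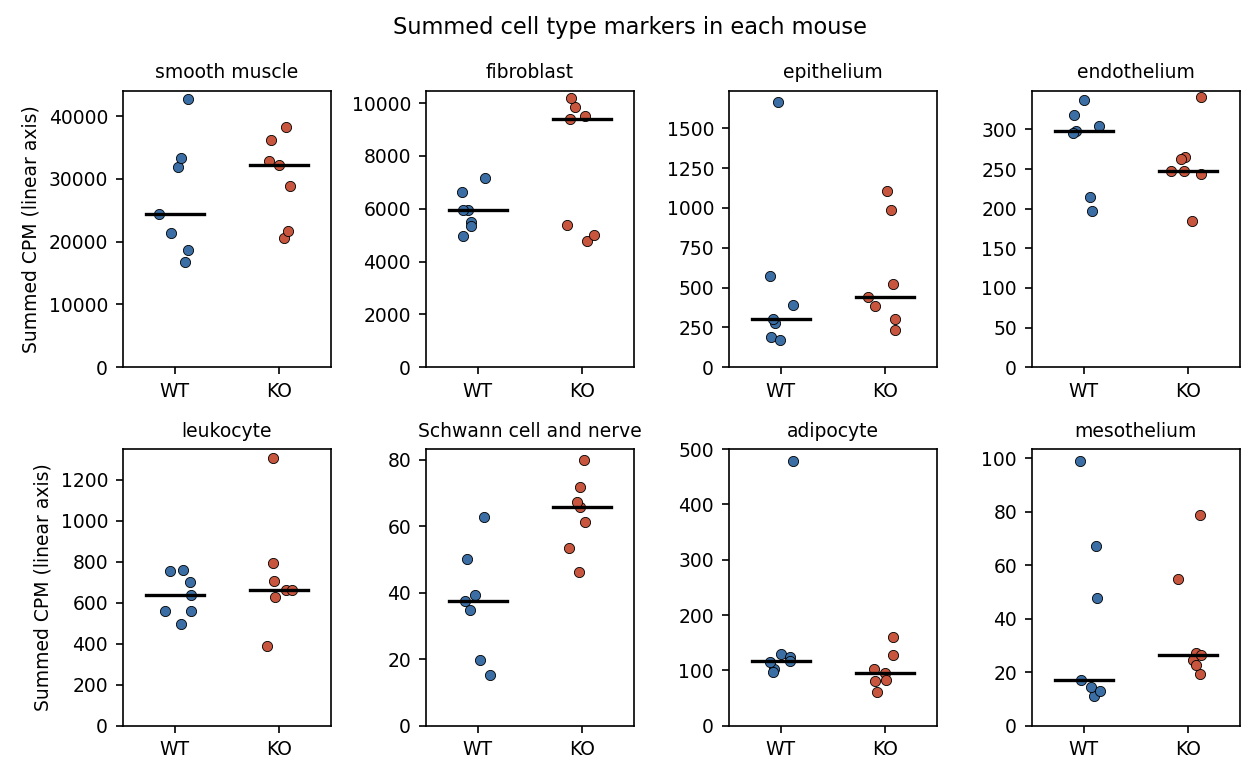
Each point is the summed CPM of the markers of a cell type in 1 mouse (linear axis from 0), and the bar is the median of 7 mice. KO mice fall into a high and a low set for fibroblast markers, and the highest points are WT mouse 5 for epithelium, KO mouse 9 for leukocytes and WT mouse 8 for adipocytes.

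The genes that varied most among mice at an average log2 CPM of at least 5 included several of uterine glands and surface epithelium. Prss29 and Prss28, the implantation serine proteases of uterine glands, had 69.2 to 1745 and 10.1 to 517 CPM in WT and 8.15 to 1006 and 0 to 89.4 CPM in KO. Their log2 fold changes were -1.29 ± 0.64 and -1.86 ± 0.63 (edgeR adjusted p = 0.990 for Prss28), and the value of Prss28 was 1.15 within rows E and F. Ltf and Lcn2, the iron-binding lactoferrin and lipocalin 2, reached 591 and 1912 CPM in KO mouse 11, and their log2 fold changes were 0.39 ± 0.59 and 0.86 ± 0.62. Aqp8, a water channel, had 6.20 to 288 CPM in WT and 0 to 340 in KO. Abcb1b, a drug efflux transporter, had 18.6 to 522 CPM in WT and 16.5 to 574 in KO. Tsix, the antisense transcript of Xist, ranged from 2.06 to 438 CPM, with a log2 fold change of 0.01 ± 0.56, and its tags cannot be told apart from those of Xist. The genes with the most counts were steadier. Ctla2a, a cysteine protease inhibitor homologue, had 13456 to 33545 CPM in WT and 16390 to 47620 in KO, and Tpt1, a growth-related cytosolic protein, 9221 to 11834 and 8230 to 13221.

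The genotype effect in myometrium was then set against that in whole uterine horn of the same mice, in 1 fit with an interaction term. None of 14243 genes passed an adjusted p of 0.05 (0%), and 594 (4.17%) had an unadjusted p under 0.05, 270 with a positive interaction term, which means a KO over WT difference further up in myometrium than in whole uterus, and 324 with a negative one. With spike-in scaling that split was 663 and 118. With mouse number as a replicate block, edgeR called 0 genes and 424 were under the unadjusted threshold. DESeq2 without that block called 0, with 422. Tfpi had a log2 fold change of -1.07 ± 0.40 in whole uterus, and the difference between the tissues was -0.21 ± 0.49. Plpp3 had -0.71 ± 0.40 in whole uterus against 0.70 ± 0.16 in myometrium, a difference of 1.36 ± 0.45 (SE) with an edgeR adjusted p of 1.00. The whole-uterus level of Plpp3 was 275, 353 and 2414 CPM in WT (lowest, median and highest mouse) and 267, 394 and 546 in KO. Its KO median there was above its WT median, so the negative value rested on the top of the WT range. For Ncam1 the difference between the tissues was 0.78 ± 0.68, for Cbx1 0.06 ± 0.49 and for Spink1 0.30 ± 1.09. The smallest p was that of Sybu, syntabulin, a linker of vesicles to motor proteins, which had 0 counts in WT myometrium and 7 in KO.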

How the data were processed

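The authors deposited raw counts per gene for the STRT libraries, made from 10 ng RNA each. Per the study's methods, the authors joined reads by molecular identifier, aligned them to mouse build mm9 with TopHat and counted UCSC gene models with Homer, whereas the labels name HTSeq. Strand use and treatment of multiple hits were not given in the sources used here. The table held 24422 genes and 92 spike-ins, which were left out of library sizes, and 0 columns were unmapped.

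Counts of the repeat libraries of WT mouse 12 were summed. Their counts differed with a chi-square per degree of freedom of 1.78, against 2.50 to 6.11 for other WT pairs. A gene was tested where 5 or more mice reached 1 CPM, the study's own limit. The test was that of edgeR 4.0.16 in R 4.3.3 (quasi-likelihood F test, TMM factors, Benjamini-Hochberg adjustment, two-sided, threshold 0.05). The procedure was tested on simulated data. The standard error is the absolute log2 fold change over the square root of F. P-values set a difference against the spread between mice. The interaction used both tissues of 14 mice. Its standard errors and p-values take the 2 tissues of a mouse as independent, except with mouse number as a replicate block. Mouse numbers pair tissues of the same animal, and deviations correlated at 0.005 to 0.190 within a mouse, 0.0819 on average, and at -0.0137 on average between mice.

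Named were Plag1, Plagl1, Plagl2, Igf2 and Chchd7, the 8 genes with the smallest p in each direction at a mean of at least 20 CPM in 1 genotype, for each list the 3 genes with the highest mean CPM and the smallest p, 8 genes without overlap between genotypes, the 8 most variable genes at an average log2 CPM of at least 5, the 5 genes with the highest mean CPM, and the gene with the smallest interaction p. Further list members with an unadjusted p under 0.05 were named too. The genes, lists and tests were chosen with earlier results of these data known. Alternatives were DESeq2 1.42.0, limma-voom (limma 3.58.1), RLE factors, scaling by spike-ins, testing without a filter, a filter at 10 CPM, either library of mouse 12 alone, position row as covariate or alone, all 6 groups in a single fit, and each mouse left out. Leaving out KO mice 2 and 9 and an epithelial covariate were added after the data were seen. Coordinates of genes are from GENCODE M1. Promoters are from RefSeq. A few genes that this rule names are not reported here.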

Additional observations from a re-analysis of the deposited data

Results flagged for a closer look

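In 27 of 260 groups of 7 mice, 1 mouse stood apart from the others of its genotype by Dixon's test. The nominal rate of about 1 in 20 assumes normal values and groups not chosen on the data. Many of these genes were chosen on these data and some had few counts, so 27 is not read as an excess. Explanations for the mice that stood apart were not tested. The level in CPM is followed by that of the nearest other mouse of the genotype.

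WT mouse 8 stood apart with Cfd at 207 (next 6.63) and the adipocyte marker sum, which includes Cfd, at 479 (next 130). It was also apart with Rps2 at 1252 (next 336), Errfi1 at 35.1 (next 118) and Col1a2 at 876 (next 1136). WT mouse 5 was apart with Krt18 at 352 (next 72.3), Fosb at 20.6 (next 2.21) and the endothelial Egfl7 at 20.6 (next 41.0). The level of Tfpi in WT mouse 7 was 56.6 (next 37.2). WT mouse 10 had Jun at 387 (next 212) and Nprl3 at 21.1 (next 11.0), and WT mouse 12 had S100b at 15.7 (next 4.69).

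KO mouse 4 had the lowest values of Rps20 at 3175 (next 3859), Aldoa at 310 (next 489) and Cox8a at 4073 (next 6232). KO mouse 9, the shallowest library, was apart with Glycam1 at 142 (next 4.45), Afmid at 13.2 (next 6.27), Tnni2 at 9.91 (next 41.6) and the mesothelial Wt1 at 0 (next 10.2). KO mouse 13 had Jund at 298 (next 136), Fosb at 2.06 (next 0) and Ltf at 2.06 (next 88.5). KO mouse 14 had Sparc at 3807 (next 3132), Ctla2a at 47620 (next 25566) and the erythroid Alas2 at 14.0 (next 2.04). KO mouse 2 had S100b at 21.9 (next 6.60), and KO mouse 6 had Tsix at 4.08 (next 72.0).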

How the results depend on the processing

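The count of genes past an adjusted p of 0.05 was 0. It was 1 with spike-in scaling (Gapdh) and 3 without a gene filter (Cfd, Gapdh and Spink1), and ranged from 0 to 1 with each mouse left out: 1 gene, Atp7a, without WT mouse 7, and Gapdh without KO mouse 4, 6, 11 or 13. It was 0 under the other alternatives, at an adjusted p of 0.1 too. Genes with an unadjusted p under 0.05 numbered 548, against 829 without a filter and 271 with a filter at 10 CPM, where other numbers of genes were tested, and 501 to 653 with each mouse left out. Genes without overlap numbered 9, against 4 with a filter at 10 CPM, 10 to 18 with a mouse left out and 31 without KO mice 2 and 9. Fewer mice make overlap less likely by construction. The interaction had 594 genes with an unadjusted p under 0.05 and 294 with a filter at 10 CPM. With mouse number as a replicate block these were 424, and 0 were called, so that the pairing of tissues within mice changed no call. No gene passed the test, so a direction had no call to lose, and signs turned within rows E and F for Prss28 (-1.86 to 1.15), Ier3 (-0.34 to 0.99) and Cldn3 (-0.64 to 0.88), among others. The cause was not tested. Itm2c was -0.59 without WT mouse 3, and Fst -1.35. Depth limited genes near the floor of 3 counts.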
